A study of Mus musculus with 12 samples.

Results

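The genes described here are 40 genes of the cell division cycle, chosen by their symbols from a list, out of 35509 genes in the deposited table. They were sorted by role into 10 S-phase genes (Mcm2 to Mcm7, Pcna, Rrm1, Rrm2 and Tyms), 21 mitotic genes (from Mki67, Top2a and the B-type cyclins to the kinesins Kif11 and Kif20a) and 9 regulators of the G1 phase (cyclins D1 to D3, their kinases, Cdk2, E2f1 and the inhibitors Cdkn1a and Cdkn1b). All 40 symbols were found, each on 1 row. The list was chosen with earlier results of these data known.

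The libraries come from the distal Fallopian tube (oviduct) of mice described as MADM wildtype, with MADM RG;GR alleles on a mixed background and no treatment, at 4 weeks of age. MADM (mosaic analysis with double markers) colours a single cell and its descendants through recombination between chromosomes, so that all cells of a clone share a colour. From each of 6 mice, 200 cells of large clones and 200 cells of small clones were cut out by laser and pooled, which gave 6 libraries for each clone size. All 12 libraries carry the same alleles, so the comparison is of clone size within wild-type tissue. The comparison asks whether cells of a clone that had grown large held more, or other, cell-cycle RNA than cells of a clone that had stayed small. In pooled cells, fewer dividing cells and less RNA in each dividing cell cannot be told apart.

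As background, a cell that leaves rest makes D-type cyclins, which with Cdk4 and Cdk6 inactivate the retinoblastoma proteins and free E2F factors to switch on the genes of DNA replication. The S-phase genes encode the MCM helicase that opens DNA at origins, the sliding clamp Pcna and the enzymes that supply nucleotides. The mitotic genes are switched on later, encode the machinery that condenses, attaches and separates chromosomes, and are repressed in resting cells through a promoter element known as the CHR. CCAAT boxes, which many of their promoters also carry, bind the activator NF-Y. Cdkn1a and Cdkn1b bind cyclin-kinase complexes and hold the cycle back.

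The promoter elements are shown as a feature of these genes that does not rest on RNA level. Promoters from RefSeq (build GRCm38.p6) matched 33 of the 40 genes; Aurkb, Ccna2, Ccnd1, Ccnd2, Kif20a, Mcm4 and Tpx2 had none. The 250 bases before the start were searched on both strands for an E2F element (TTTGGCGC, TTTGCCGC, TTTCGCGC or TTTCCCGC), a CHR (TTTGAA or TTCGAA, the latter the same on both strands) and CCAAT, and matches of different elements may overlap. In the windows below, each 36 bases long and written 5′ to 3′ along the gene's strand, capitals mark an E2F match in the first 3 and a CHR match in the last 4. Those of Mcm7, Ube2c and Top2a lie on the opposite strand and so read as the reverse complement of the form searched. Each gene is shown by 1 window, although Mcm5, Mcm6, Cdk1, Top2a and Hmgb2 had further matches of the same element. For Cdk1 the match shown begins 71 bases before the start, and another CHR match begins 15 bases before it. Mcm7 had a further promoter with 0 E2F matches.
Mcm5: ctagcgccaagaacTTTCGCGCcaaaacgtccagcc
Mcm6: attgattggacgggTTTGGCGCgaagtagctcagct
Mcm7: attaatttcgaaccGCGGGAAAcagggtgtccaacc
Cdk1: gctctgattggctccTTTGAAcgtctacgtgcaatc
Ube2c: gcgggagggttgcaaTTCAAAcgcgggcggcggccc
Top2a: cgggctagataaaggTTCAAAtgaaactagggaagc
Hmgb2: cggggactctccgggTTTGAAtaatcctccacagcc

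The windows lie at chr8:75109342-75109377 on the plus strand for Mcm5, chr1:128359731-128359766 on the minus strand for Mcm6 and chr5:138172027-138172062 on the minus strand for Mcm7. Those of the mitotic genes lie at chr10:69352963-69352998 on the minus strand for Cdk1, chr2:164769885-164769920 on the plus strand for Ube2c, chr11:99024192-99024227 on the minus strand for Top2a and chr8:57511798-57511833 on the plus strand for Hmgb2. An E2F match was found in 3 of 9 S-phase genes, 1 of 17 mitotic genes (Cdk1) and 1 of 7 G1 regulators (Cdk2), against 2.16% of 27025 genes with a promoter in the table. A CHR match was found in 10 of 17 mitotic and 2 of 9 S-phase genes and in 0 of 7 G1 regulators, against 19.6% of all genes. CCAAT was in 15 of 17 mitotic, 8 of 9 S-phase and 3 of 7 G1 genes, against 37.5% of all, so its share was alike in the S-phase and mitotic groups. No test of these differences was run. A match describes the letters in the window and says nothing of a bound factor.

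Each library held between 3057979 and 4227129 expected counts, so that 3 counts, the limit that a count of 0 allows, stood for 0.585 to 1.33 CPM (TMM-scaled counts relative to library size). Such a limit accounts for counting error alone, because reads copied by amplification carry no molecular identifier and do not each stand for a molecule. Ovgp1, the oviductal glycoprotein of secretory cells, had 350.3 to 7829 CPM over the 12 libraries. The 5 secretory markers together, Ovgp1 included, summed to 391.9 to 5014 CPM in large and 468.2 to 8922 CPM in small clones. Levels of the other markers in this list are not given singly here. A set of 5 libraries stood apart from the other 7, namely those of the large clones in mice 1, 2 and 6 and those of the small clones in mice 3 and 6. Genes of chemoreceptors (for smell, pheromones and taste), which this tissue is not known for, held 7.86% to 11.02% of their counts against 0.842% to 4.17%, and ribosomal protein genes held 1.71% to 8.55% against 14.2% to 19.2%. Processed pseudogenes held 10.65% to 15.5% of counts in these 5 libraries against 2.97% to 7.22%. The source of these counts was not tested, so levels in the 5 libraries are given as the counts assigned to each gene. Fold changes that move with this share by over 1.5 times are given below also for the other 7 libraries, which are 3 of large and 4 of small clones.

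The 40 genes spanned from abundant RNA to almost none. All 12 libraries had a count for 21 genes, while 8 genes had a count in fewer than 6 libraries. The filter on low counts passed 24 genes, namely 6 of 10 S-phase, 9 of 21 mitotic and 9 of 9 G1 genes. Divided by the length of the longest coding transcript, the mean over 12 libraries was highest for Cdkn1a (397 CPM per kb) and Tyms (264 CPM per kb), followed by Rrm1 (51.5), Ccnd3 (27.1), Cdk6 (26.8) and Birc5 (23.3). Mki67, the usual marker of cycling cells, had 2.08 CPM per kb, and Pcna and Cdk1 had 0.577 and 0.244. RNA was amplified from poly(A) tails, and whether counts rose with transcript length was not tested. Without the division, Mki67, Pcna and Cdk1 had means of 20.97, 0.876 and 1.07 CPM. At the bottom were the spindle-checkpoint kinases Bub1 (0.0624) and Bub1b (0.0105) and the chromosome-passenger kinase Aurkb (0.0181). Single libraries varied widely around these means: Tyms ran from 39.99 to 536 CPM per kb and Cdkn1a from 102 to 696, so the order of these neighbours is not beyond their spread, while both lay above the range of Pcna (0 to 2.10) in all libraries.

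**Figure D1:**
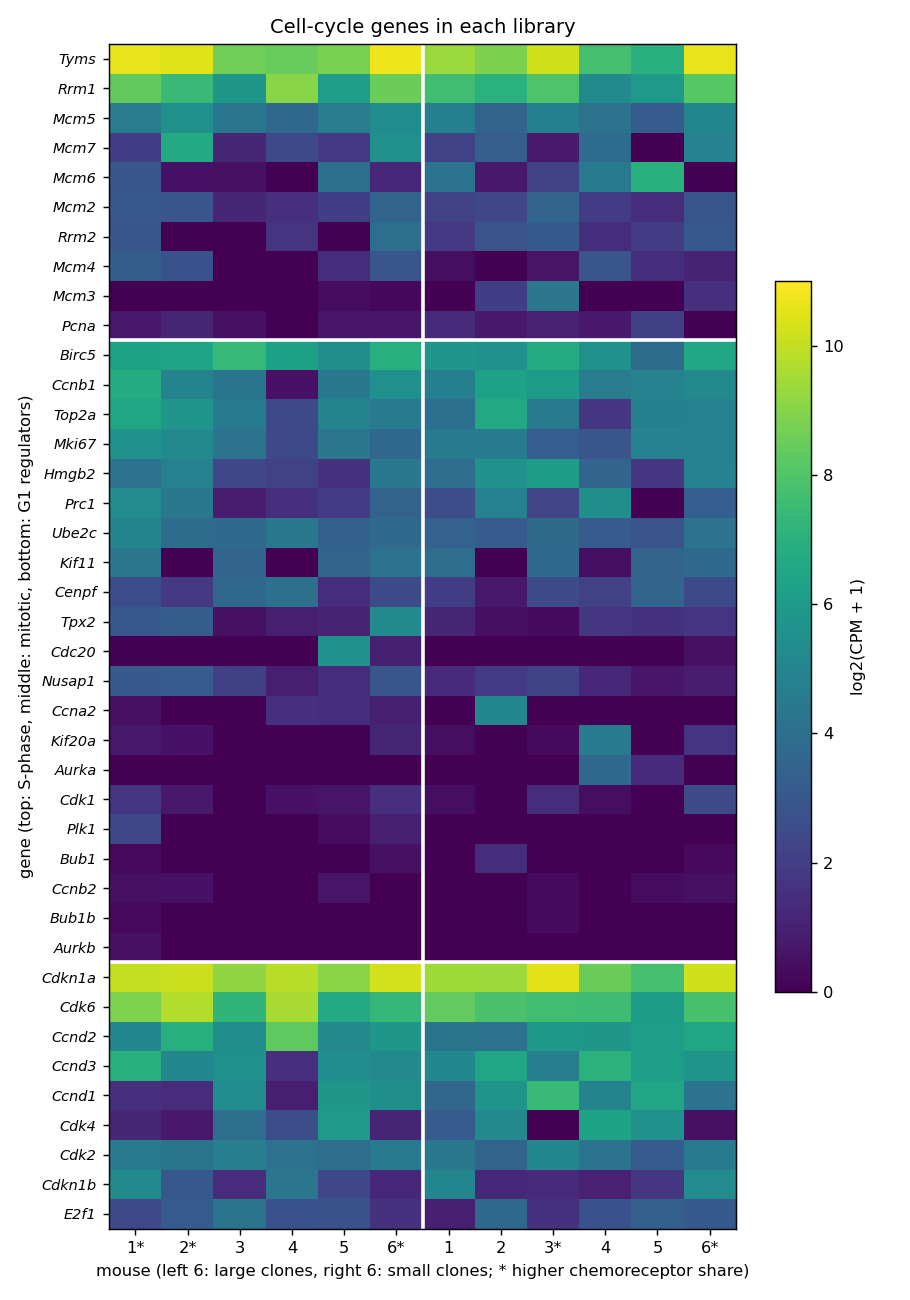
Level of each of the 40 genes (rows, sorted by mean level within S-phase, mitotic and G1 groups) in each of the 12 libraries (columns, by clone size and mouse), as log2(CPM + 1) in colour from 0 to 11. Tyms, Rrm1, Cdkn1a and Cdk6 are bright in all libraries, and several mitotic genes are dark except in 1 library.

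Copies and neighbours bear on some of these values. Ccnb2, a mitotic cyclin, had 10 counts in all libraries together, while its pseudogene Ccnb2-ps had 1609. Pcna had 38 counts and its pseudogene Pcna-ps2 had 103, whereas Tyms-ps had 0 beside 41871 counts on Tyms. Expected counts split reads between such copies by estimate, so the levels of Ccnb2 and Pcna are uncertain. Ccnd1 overlaps LTO1 on the other strand by 1771 bases in the table's coordinates, and LTO1 held 22430 counts against 1865 on Ccnd1. Prc1 overlaps Rccd1 by 21810 bases, its whole span (2927 counts against 624). Other overlaps were those of Mcm7 with Cops6 and Ap4m1 (5702 and 3370 counts against 924) and Cdc20 with Elovl1 (2700 against 182). Kif20a overlaps Cdc23 (832 against 88), Ccna2 overlaps Exosc9 (250 against 111) and Cdk4 overlaps Tspan31 (545 against 809). The library kit, Nextera XT, does not mark strand, so reads from the shared bases cannot be told apart.

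No cell-cycle gene passed the test between large and small clones. In edgeR's quasi-likelihood test with Benjamini-Hochberg adjustment over 10848 genes, 0 of the 24 tested cell-cycle genes had an adjusted p under 0.05 (0% of all genes tested did), and each had an adjusted p of 0.9998. At an unadjusted p under 0.05 there were 0 of 24, where 2.54% of all genes were, and with mouse as a block 0 of 24, where 1.86% were. The 6 large-clone and 6 small-clone libraries overlapped for each of the 24 genes, and 0.0645% of all genes showed no overlap. DESeq2 also called 0 of the 24, both without mouse as a block (0.0461% of all genes called) and with it (0.396%), with 1 gene at an unadjusted p under 0.05 in each (Mcm6 at 0.0351 and Ccnd1 at 0.00466). The log2 fold change of large over small was above 0 for 16 of 24 genes (53.2% of all genes tested) and below 0 for 8 (46.8%), and its median was 0.22, beside 0.06 over all genes. By group it was above 0 for 5 of 6 S-phase genes (median 0.48), 6 of 9 mitotic genes (median 0.22) and 5 of 9 G1 genes (median 0.08). In the 7 libraries of low chemoreceptor share these were 3 of 6, 4 of 9 and 5 of 9, with medians of -0.29, -0.60 and 0.33, so the direction of the S-phase and mitotic medians turned. Over all genes in those libraries, 46.02% lay above 0 and the median was -0.10, so the counts for the S-phase and mitotic genes were near the share of all genes. The low-count filter kept genes by their level, so these counts describe the 24 tested genes and not all 40.

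**Figure D2:**
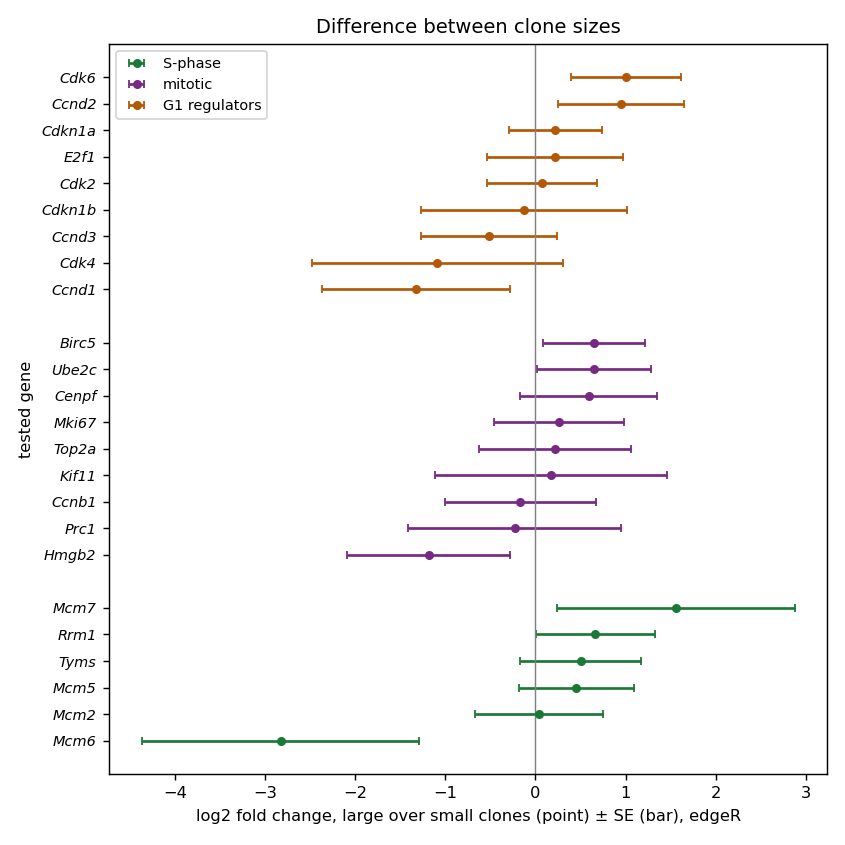
Log2 fold change of large over small clones (points) with its SE (bars) in edgeR for the 24 tested genes, grouped as S-phase, mitotic and G1 regulators. The estimates lie between -2.83 for Mcm6 and 1.56 for Mcm7, and none passed the adjusted threshold.

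Among the nucleotide-supply genes, Tyms, which makes thymidylate, had 348, 931 and 1696 CPM in large clones (lowest, median and highest of 6 libraries) and 127, 549 and 1545 CPM in small clones. The ranges overlapped, and large clones were higher in 5 of 6 mice, mouse 3 being the exception. Its log2 fold change was 0.50 (SE 0.67), and 0.02 in the 7 libraries of low chemoreceptor share. In every mouse but mouse 3 the large-clone library also had the higher chemoreceptor share. In mouse 3 that share was 1.76% in large and 7.86% in small clones. Rrm1, the large subunit of ribonucleotide reductase, had 56.1, 247 and 522 CPM in large and 37.8, 164 and 284 CPM in small clones (log2 fold change 0.66, SE 0.66), again higher in 5 of 6 mice, and 0.08 without mouse 4. Its partner Rrm2, the subunit that is made anew in S phase, was far lower at 0, 1.11 and 14.8 against 1.70, 4.42 and 7.69 CPM and did not pass the filter. Large clones of mice 2, 3 and 5 had no count for Rrm2, whereas small clones of all 6 mice had some.

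The subunits of the MCM helicase act together as a ring, and their RNA differed from library to library. Mcm5 had 11.99, 23.6 and 44.7 CPM in large and 8.10, 21.3 and 32.2 CPM in small clones (log2 fold change 0.45, SE 0.64), with 0.08 without mouse 2 and 0.17 in the 7 libraries of low chemoreceptor share. Mcm2 had 1.24, 4.72 and 10.53 against 1.74, 3.84 and 10.9 CPM (log2 fold change 0.04, SE 0.71), and without mouse 6 it was -0.21; its sign also turned without mouse 1, 2 or 5. Both sets of values overlapped throughout. Mcm6 had the lowest p of the 24 genes (0.0863 unadjusted), with 0, 0.918 and 15.2 CPM in large and 0, 10.3 and 127 CPM in small clones and a log2 fold change of -2.83 (SE 1.54). Only mouse 6 had more in its large clones, and 437 of its 669 counts came from the small clones of mouse 5. Without mouse 1 or mouse 5 it fell below the filter and was not tested. With the chemoreceptor share as a covariate the log2 fold change of Mcm6 was -1.1 (SE 2.11). In the 7 libraries of low chemoreceptor share it was -2.93. Mcm7 had 1.24, 3.71 and 106 CPM in large and 0, 6.28 and 28.0 CPM in small clones (log2 fold change 1.56, SE 1.32), with 448 of 924 counts in the large clones of mouse 2. Without mouse 2 its log2 fold change was 0.29, and in the 7 libraries of low chemoreceptor share it was -1.24. Mcm3 and Mcm4 did not pass the filter; 80 of the 100 counts of Mcm3 lay in the small clones of mouse 3. Pcna, the sliding clamp of the replicating polymerases, had 0, 0.573 and 1.18 CPM in large and 0, 0.846 and 3.18 CPM in small clones. With 0 to 11 counts per library, no difference was detectable for Pcna at this depth.

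Of the mitotic genes, Mki67, which coats mitotic chromosomes, had 4.44, 18.4 and 49.0 CPM in large and 6.46, 21.9 and 28.4 CPM in small clones. Its values were higher in large clones in mice 1, 2 and 3 and lower in mice 4, 5 and 6. The log2 fold change was 0.26 (SE 0.72), it was -0.11 without mouse 1 and -0.60 in the 7 libraries of low chemoreceptor share. Top2a, the topoisomerase that untangles sister chromatids, had 4.44, 26.4 and 90.6 CPM in large and 2.38, 23.8 and 98.6 CPM in small clones (log2 fold change 0.22, SE 0.85). It was higher in 4 of 6 mice, and its fold change was -0.41 without mouse 1 and -1.01 in the 7 libraries. Ccnb1, the cyclin that with Cdk1 triggers mitosis, had 0.444, 25.0 and 111 CPM in large and 23.8, 32.1 and 76.6 CPM in small clones (log2 fold change -0.17, SE 0.84). Small clones lay within a narrower range than large clones, which held both the lowest and the highest library. Without mouse 2 the fold change was 0.13, without mouse 1 it was -1.001, and in the 7 libraries of low chemoreceptor share it was -1.59. Cdk1 itself had 0, 0.634 and 2.12 CPM in large and 0, 0.328 and 4.83 CPM in small clones, with 0 to 23 counts per library, and was not tested.

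Birc5, the survivin subunit of the chromosomal passenger complex, was the only tested cell-cycle gene higher in large clones in 6 of 6 mice, a pattern that 1.16% of all tested genes had; 0 were lower in 6 of 6 mice, against 1.05%. It had 43.8, 83.2 and 166 CPM in large and 13.9, 50.4 and 108 CPM in small clones. The ranges overlapped, the log2 fold change was 0.65 (SE 0.56) with an unadjusted p of 0.267, and the gene was picked out after its values were seen. With mouse as a block it was 0.78 (SE 0.50, unadjusted p 0.148 in edgeR), and in the 7 libraries of low chemoreceptor share it was 1.11. Hmgb2, a chromatin protein abundant in cycling cells, had the lowest p among mitotic genes. It had 1.97, 10.8 and 27.8 CPM in large and 2.32, 21.3 and 66.2 CPM in small clones (log2 fold change -1.18, SE 0.91, unadjusted p 0.212) and was lower in large clones in 5 of 6 mice. Without mouse 3 the value was -0.56, and with the chemoreceptor share as a covariate it was -1.90 with an unadjusted p of 0.0238. In the 7 libraries of low share it was -2.66 (unadjusted p 0.0644). Ube2c, the ubiquitin enzyme that works with the anaphase-promoting complex, Cenpf, Kif11 and Prc1 had log2 fold changes of 0.65, 0.59, 0.18 and -0.23 with SE of 0.63, 0.76, 1.29 and 1.18. The sign of Prc1 turned with upper-quartile scaling (0.03) and without mouse 4 (0.70), while a covariate for the chemoreceptor share gave -1.49 and the 7 libraries gave -3.33 (unadjusted p 0.0793). That of Kif11 turned without mouse 1 (-0.03) and in the blocked fit (-0.07) and was 0.05 in the 7 libraries. Cenpf was 1.26 without mouse 5, 0.08 without mouse 4 and 0.999 in the 7 libraries, and Ube2c was 0.32 without mouse 1.

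Most other mitotic genes were caught in a few libraries only. Of all 40 genes, 10 had more than 50% of their counts in 1 library, and 9 of these did not pass the filter. Among tested genes this held for 1 of 24 (Mcm6) and for 5.71% of all. For Cdc20, the activator of the anaphase-promoting complex, the large clones of mouse 5 held 175 of 182 counts. Ccna2, the cyclin of S phase and G2, had 94 of its 111 counts in mouse 2, in the small-clone library. In the small clones of mouse 4, Aurka had 36 of 41 counts and the kinesin Kif20a had 65 of 88, while Cdc20 and Ccna2 had a count of 0 there. Plk1 had 20 of 26 counts in the large clones of mouse 1, and Tpx2 had 186 of 292 in the large clones of mouse 6. Ccnb2, Bub1, Bub1b and Aurkb had 10, 9, 2 and 2 counts over all 12 libraries.

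The G1 regulators were the best covered group. Cdkn1a, the inhibitor that halts the cycle on DNA damage and on differentiation, had 521, 956 and 1206 CPM in large and 213, 679 and 1448 CPM in small clones. In 5 of 6 mice the large clones had more, with overlapping ranges and a log2 fold change of 0.22 (SE 0.52). It was 0.04 without mouse 4, 0.60 without mouse 3 and 0.35 in the 7 libraries of low chemoreceptor share. Cdkn1b, an inhibitor of resting cells, had 1.37, 5.64 and 38.0 against 1.02, 1.90 and 38.7 CPM (log2 fold change -0.13, SE 1.14). The direction of Cdkn1b turned to 0.73 in the blocked fit and to 0.87 without mouse 6, it was -0.38 in the 7 libraries, and 5 of 6 mice had more of it in their large clones.

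The D-type cyclins link growth signals to the cycle, and no difference between them was tested. Ccnd1 had 0.888, 20.95 and 56.2 CPM in large and 11.4, 39.97 and 167 CPM in small clones, with less of it in the large clones of 5 of 6 mice. The log2 fold change was -1.33 (SE 1.04, unadjusted p 0.223), and with mouse as a block it was -2.29 (SE 1.06, unadjusted p 0.0571). In DESeq2 with the block its adjusted p was 0.193, the lowest of the 24 genes there. Large clones of mice 1, 2 and 4 held 9, 7 and 2 counts of Ccnd1, and the libraries of the first 2 are among the 5 with the higher chemoreceptor share; in the other 7 libraries the log2 fold change was -0.48. Ccnd2 had 32.7, 49.2 and 307 CPM in large and 17.5, 55.9 and 90.2 CPM in small clones (log2 fold change 0.95, SE 0.70). It was higher in 3 of 6 mice, and the value was 0.18 without mouse 4 and 1.65 in the 7 libraries of low chemoreceptor share. Ccnd3 had 1.78, 38.5 and 126 against 25.1, 61.4 and 135 CPM (log2 fold change -0.52, SE 0.75). The value was 0.04 without mouse 4, -1.25 without mouse 1 and -1.50 in the 7 libraries of low chemoreceptor share.

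Cdk6 had the lowest p of the genes with a higher estimate in large clones. It had 106, 312 and 856 CPM in large and 62.8, 210 and 331 CPM in small clones, a log2 fold change of 1.01 (SE 0.61, unadjusted p 0.121), with the large clones ahead in 4 of 6 mice. Without mouse 2 the log2 fold change was 0.64, and in the 7 libraries of low chemoreceptor share it was 0.60. Its partner kinase Cdk4 had 0.706, 3.30 and 58.7 CPM in large and 0, 21.4 and 83 CPM in small clones (log2 fold change -1.09, SE 1.39). Without mouse 4 that of Cdk4 was -0.25, without mouse 5 it was -2.47, a covariate for the chemoreceptor share gave 0.36, and in the 7 libraries it was -0.66. Cdk2, the kinase of the G1 to S transition, had medians of 19.9 (large clones) and 18.6 CPM (small clones), and E2f1 had 5.70 and 6.67 CPM. Their log2 fold changes were 0.08 (SE 0.61) and 0.22 (SE 0.76), and that of E2f1 was -0.45 without mouse 3. That of Cdk2 was -0.09 without mouse 2 and 0.33 in the 7 libraries, where that of E2f1 was 0.40.

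S-phase and mitotic genes were then compared within each library by their summed CPM, as a description with no test. The S-phase sum was 467, 1323 and 2185 CPM in large and 312, 757 and 1905 CPM in small clones. The mitotic sum was 129, 277 and 466 CPM in large and 131, 227 and 367 CPM in small clones. Per mouse, the log2 ratio of large over small averaged 0.57 ± 1.20 for the S-phase sum (SD, n = 6) and 0.20 ± 0.75 for the mitotic sum (SD, n = 6). Large clones were higher in 5 of 6 mice for the first and in 3 of 6 for the second, and both means are smaller than their SD. The log2 ratio of the S-phase to the mitotic sum was 0.80, 2.34 and 2.80 in large and 0.74, 1.80 and 2.84 in small clones, higher in large clones in 3 of 6 mice. The difference between large and small clones in this ratio averaged 0.37 ± 1.36 (SD, n = 6), which is within the spread between mice. In the 7 libraries of low chemoreceptor share, the S-phase sum was 467.1 to 890.6 CPM in large and 311.6 to 895.2 CPM in small clones. There the mitotic sum was 128.8 to 267.5 CPM in large and 130.5 to 367.1 CPM in small clones, so both sums overlapped.

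A single gene carried much of each sum. Tyms made up 38.4% to 83.2% of the S-phase sum, and without it the log2 ratio of large over small was 0.28 ± 1.52 (SD, n = 6). Without Birc5 the mitotic ratio was -0.12 ± 1.13 (SD, n = 6), opposite in sign to the value with it. When each gene was given equal weight as the mean of log2(CPM + 1), large minus small averaged -0.10 ± 0.88 for S-phase, 0.11 ± 0.59 for mitotic and -0.14 ± 0.38 for G1 genes (SD, n = 6 each), and for each the large clones were ahead in 3 of 6 mice. The S-phase mean thus had the opposite sign to the S-phase sum.

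**Figure D3:**
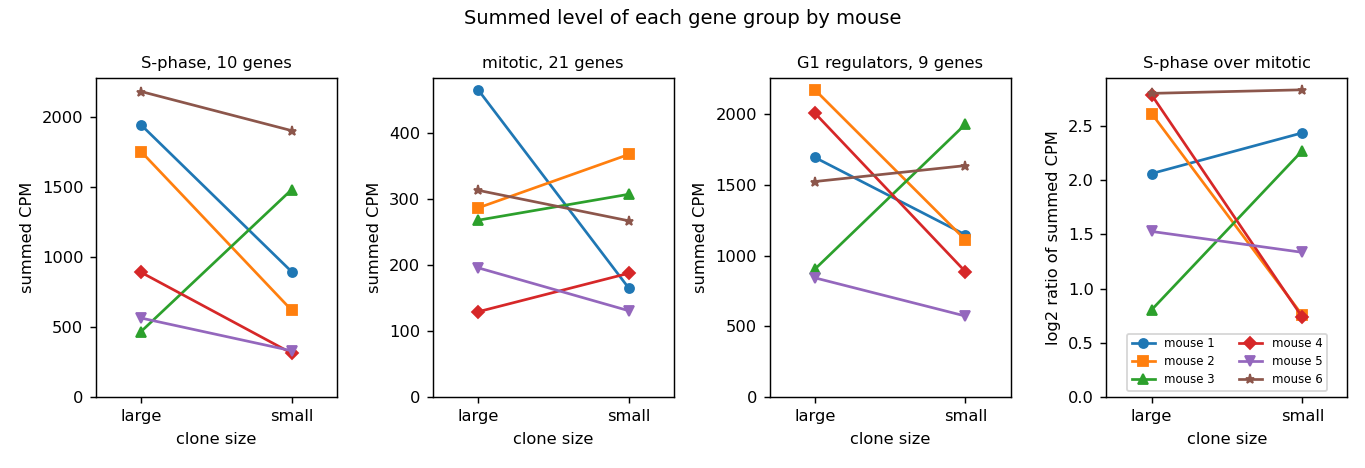
Summed CPM of the S-phase, mitotic and G1 genes and the log2 ratio of the S-phase to the mitotic sum (y axes) in large and small clones (x axis), with a line joining the 2 libraries of each of the 6 mice. The S-phase sum is higher in large clones in all mice but mouse 3, and the lines of the mitotic sum and of the ratio cross in both directions.

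Levels of some cell-cycle genes separated the libraries by chemoreceptor share, a pattern that was not particular to cell-cycle genes. Tyms had 1166 to 1696 CPM in the 5 libraries of higher share and 127 to 642 CPM in the 7 others, with no overlap. Cdkn1a had 1004 to 1448 against 213 to 907 CPM, and Mcm2 had 6.31 to 10.9 against 1.24 to 4.20 CPM. These 3 were the tested cell-cycle genes for which all 5 libraries lay above the 7 others, among 24 tested, a pattern that 8.62% of all tested genes had. Cdk4 was the only one with the reverse pattern, at 0 to 1.27 CPM in the 5 libraries and 5.33 to 83 CPM in the 7 others, as 9.98% of all tested genes were. The S-phase sum was 1483 to 2185 CPM in the 5 libraries and 312 to 895 CPM in the 7 others. Without Tyms this sum overlapped, at 317.5 to 489 CPM in the 5 libraries and 78.3 to 542.8 CPM in the 7 others. The mitotic sum was 267 to 466 CPM against 129 to 367 CPM. Of the 5 libraries, 3 are large-clone libraries. In every mouse but mouse 3 the large-clone library had the higher chemoreceptor share. Tyms, Rrm1, Cdkn1a and the S-phase sum were likewise higher in large clones in every mouse but mouse 3. The part of the chemoreceptor share in the differences between clone sizes was not tested. Mki67 and Ccnd1 overlapped between the 5 and the 7 libraries, at 8.68 to 49.0 against 4.44 to 28.4 CPM and at 1.65 to 167 against 0.888 to 87.4 CPM.

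**Figure D4:**
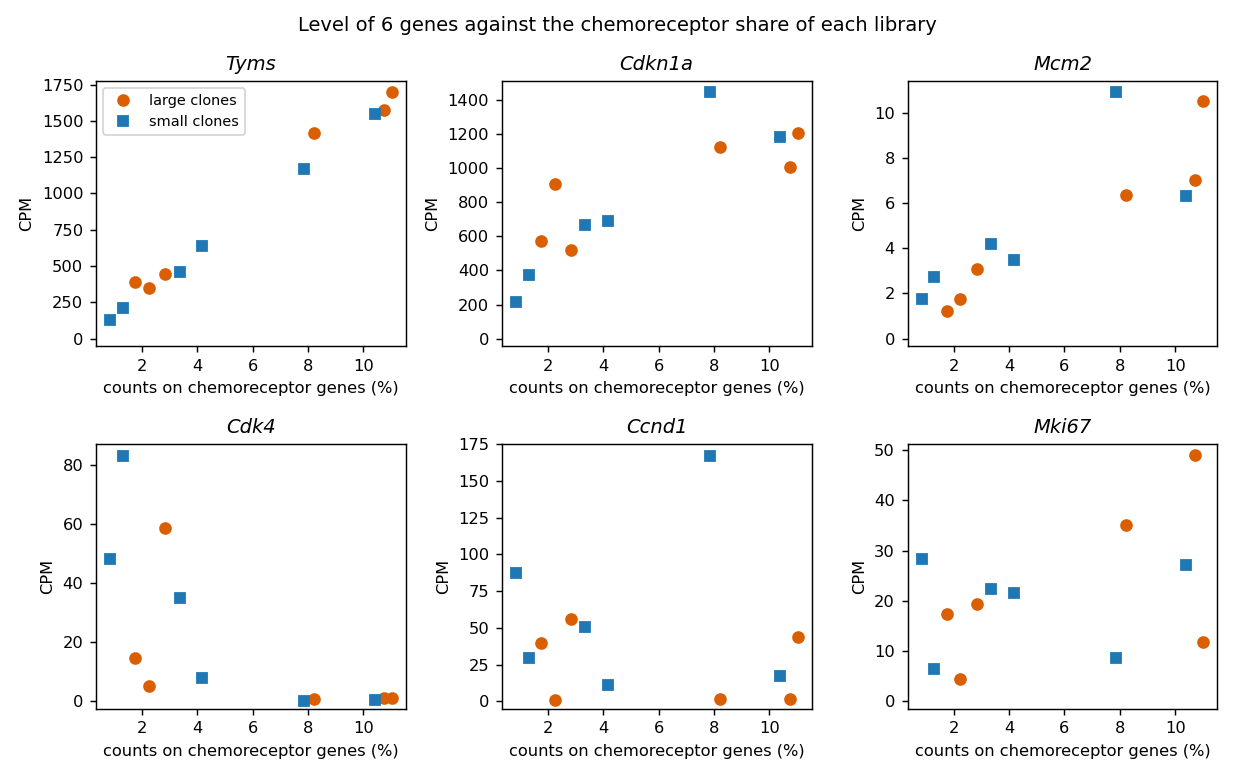
CPM of 6 cell-cycle genes (y axes) against the percent of counts on chemoreceptor genes (x axes), with 1 point per library (circles large clones, squares small clones). The 5 libraries at 7.86% and above lie above the others for Tyms, Cdkn1a and Mcm2 and below them for Cdk4, and large and small clones are mixed in both sets.

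The spread between libraries sets what could be seen. The biological coefficient of variation had a median of 88.7% over the 24 tested cell-cycle genes and 108% over all tested genes. Of the 24, 5 genes (Mcm6, Mcm7, Kif11, Prc1 and Cdk4) had 0 counts in at least 1 library, against 30.7% of all tested genes.

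A wider list of 97 other cell-cycle genes was read from the same fit. Of these, 48 were tested, 31 had a log2 fold change above 0 and 17 below, and the median was 0.20. In edgeR 0 of 48 had an adjusted p under 0.05 (0% of all genes) and 1 had an unadjusted p under 0.05 (2.54% of all genes). That gene was E2f2, an E2F activator, with 0, 1.43 and 6.36 CPM in large and 0.350, 10.3 and 74.9 CPM in small clones, and its log2 fold change was -3.57 (SE 1.28). The small clones of mouse 3 held 302 of its 592 counts. Among 22 tested genes of mitosis, 19 were above 0, with a median of 0.31, where 53.2% of all genes were above 0. The count was 16 of 22 with mouse as a block (47.7% of all genes) and 13 of 22 with the chemoreceptor share as a covariate (50.62%). It was 12 of 21 in the 7 libraries of low chemoreceptor share (46.02%) and 13 of 23 without mouse 2 (48.86%). Mad2l1, a spindle-checkpoint protein, had 2.06, 47.4 and 164 CPM in large and 15.3, 21.6 and 28.2 CPM in small clones (log2 fold change 1.37, SE 0.78), and 0.74 without mouse 4. Mybl2, a transcription factor of late cycle genes, had 9.77, 17.0 and 76.6 CPM in large and 17.1, 28.6 and 196 CPM in small clones (log2 fold change -1.10, SE 0.81), and -0.22 without mouse 3. Of 16 tested replication genes, 6 were above 0 and the median was -0.02, and Cdc45, which joins the MCM ring in the active helicase, had 1.65, 8.07 and 80.8 against 0, 2.60 and 13.5 CPM (log2 fold change 2.44, SE 1.19), and 1.10 without mouse 4. Of 10 tested G1 control genes, 6 were above 0 and the median was 0.13.

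Markers of the cell types that the clones or their surroundings could hold were read beside these values. The 7 ciliated-cell markers summed to 239 to 5188 CPM in large and 376 to 9556 CPM in small clones, and all 7 were tested and had log2 fold changes below 0. The 5 secretory markers summed to 392 to 5014 and 468 to 8922 CPM. Cycle-related factors of cells that make many cilia (8 genes, among them Mcidas, Deup1 and Ccna1) summed to 18.5 to 155 and 18.1 to 154 CPM, with 3 of 8 tested. Of markers of other cells, the 6 immune genes summed to 0.444 to 250.1 and 2.45 to 84.1 CPM with Cd68 at a median of 0 in both, the 4 endothelial genes to 26.4 to 363 and 40.6 to 117 CPM with Cdh5 and Tek at a median of 0, and the 6 fibroblast genes to 15.8 to 521 and 37.1 to 168 CPM. The 5 smooth muscle genes summed to 4.10 to 71.1 and 1.68 to 118 CPM, and the 4 red blood cell genes to 200.4 to 5928 and 33.0 to 2136 CPM. Log2 fold changes were above 0 in 3 of 3 tested immune genes (median 1.67), 2 of 2 endothelial genes (median 1.81), 3 of 3 red blood cell genes (median 0.84) and 2 of 4 fibroblast genes (median 0.59). They were above 0 in 2 of 5 secretory genes (median -0.90), 1 of 3 factors of multiciliated cells (median -0.40) and 0 of 1 smooth muscle gene, and the ciliated median was -0.76. In these lists 0 genes passed the adjusted threshold in edgeR and 2 had an unadjusted p under 0.05 (1 fibroblast and 1 endothelial gene). Over all genes tested these shares were 0% and 2.54%, and 53.2% of log2 fold changes were above 0 and 46.8% below. Marker values for the 7 libraries of low chemoreceptor share alone are not given here. The part of these cell types in the cell-cycle levels was not tested.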

How the data were processed

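RNA from laser-captured pools of 200 cells was amplified from poly(A) tails and turned into 12 sequencing libraries by Nextera XT, a kit that does not mark strand, per the labels' protocols. The deposited values are expected counts per gene, which need not be whole (22.7% of entries were not), made by the authors with RSEM and Bowtie2 on GRCm38, per the submitters' processing notes; versions and annotation are not given in the sources used here. The table's gene starts matched GENCODE M21 on GRCm38 for 0 of the 40 genes and 2.96% of all genes, so no coordinate of the table is printed and promoter positions come from RefSeq on GRCm38.p6.

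Expected counts were rounded to whole numbers. The 1 row with no symbol (0.133% of counts) was kept under its gene identifier. edgeR 4.0.16 in R 4.3.3 was used with filterByExpr, TMM scaling and the quasi-likelihood test of large against small clones over 10848 of 35509 genes (97.2% of counts), with Benjamini-Hochberg adjustment at 0.05. The analysis was tested on simulated data. DESeq2 1.42.0, other scalings and filters, mouse as a block, a chemoreceptor covariate, the 7 libraries with a share under 6% and leaving out each mouse were alternatives. Libraries with the same number come from the same mouse, so numbers pair them. Deviations from the group means correlated within mice 1 to 6 at -0.02, -0.01, -0.38, 0.28, 0.52 and 0.64. P-values measure the spread between these libraries, 1 per mouse and clone size.

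CPM are TMM-scaled. Log2 means used a pseudocount of 1 CPM. The members and gene lists were chosen with earlier results of these data known. Named in full were 14 genes whatever their values, in each direction the 3 tested members of lowest p and, likewise, 2 other cell-cycle genes per direction.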

Additional observations from a re-analysis of the deposited data

Results flagged for a closer look

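Among 42 groups of 6 libraries searched (the cell-cycle genes named in full, the group sums and the ratio of S-phase to mitotic sums, in each clone size), 1 held a library far from the others, where chance flags about 1 in 20 groups, or 2.1 here. Cdk6, the cyclin D kinase, was low in the small clones of mouse 5, at 6.00 on the log2(CPM + 1) scale against 7.57 in the nearest other small-clone library. The gap was 0.662 of the range of the 6 values, above Dixon's 95% limit for 6 values.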

How the results depend on the processing

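No cell-cycle gene was called under any alternative run. Over all genes, edgeR called 0 in each alternative, DESeq2 called 5 and DESeq2 with mouse as a block called 43. With the replicate block (mouse) in edgeR, 0 genes were called. In that fit 17 of 24 cell-cycle genes had a log2 fold change above 0, where 47.7% of all genes did. The pairing of libraries by mouse thus changed no call in edgeR, and in DESeq2 none among the cell-cycle genes. The median of the mitotic genes became -0.60 when only the 7 libraries of low chemoreceptor share were used.

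Over the 24 tested cell-cycle genes and 10 alternatives that keep all mice or drop libraries by chemoreceptor share, 224 log2 fold changes kept their direction and 16 reversed (Cdk4, Cdkn1b, Kif11, Mcm2, Mcm7, Mki67, Prc1 and Top2a). Leaving out 1 mouse at a time, 126 kept it and 15 reversed. Cdkn1b was 0.73 with the block in edgeR and 0.72 with the block in DESeq2. Mcm2 was -0.001075 with DESeq2 size factors. With the chemoreceptor share as a covariate, Mcm2 was -0.47, Top2a -0.19 and Cdk4 0.36. In the 7 libraries, Mcm2 was -0.61, Top2a -1.01, Mki67 -0.60 and Mcm7 -1.24. Leaving out 1 mouse at a time, the range was -0.11 to 0.56 for Mki67, -0.41 to 0.82 for Top2a, -0.21 to 0.64 for Mcm2, -1.001 to 0.13 for Ccnb1 and -0.55 to 0.87 for Cdkn1b. The cause was not tested. Without mouse 1 or 5 Mcm6 gave no value, nor did Cdkn1b without mouse 1, since the gene then fell below the filter. Sums without Tyms, Birc5 or Cdkn1a and sums in the 7 libraries were chosen after seeing the data.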
